A study of Homo sapiens with 9 samples.

Results

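The interferon-stimulated genes described here are 39 genes, chosen by name, out of 57736 rows in the table of normalized counts. They were measured by RNA-seq in SKMEL-147, a human melanoma cell line, after CRISPR-Cas9 targeting of PHF8, a histone demethylase that removes methyl groups from lysines of histone tails. The cells carried a stably expressed Cas9 and were infected, as a pool rather than as single clones, with lentivirus coding for 1 of 3 guide RNAs and green fluorescent protein. sgScr was the scrambled control guide, and sgPHF8-1 and sgPHF8-3 were separate guides against PHF8. Each guide had 3 libraries (A, B and C), described in the methods as biological replicates, so that 9 libraries in 3 groups were compared. The labels and methods give no added interferon. All groups, the control included, had been infected with lentivirus, and the Cas9 line had been selected with blasticidin. The time from infection to RNA extraction is not given in the sources used here.

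Interferons are secreted proteins that bind receptors at the cell surface and activate the kinases JAK1, JAK2 and TYK2, which phosphorylate STAT proteins. Type I and type III interferons act through a complex that contains STAT2 and IRF9 and binds the interferon-stimulated response element (ISRE). Interferon gamma acts mainly through the gamma-activated site (GAS). The target genes code for RNA sensors, antiviral effectors, the ubiquitin-like protein ISG15, transcription factors that extend the response and the immunoproteasome subunits that shape peptides for MHC class I. Many of these genes keep a low level of transcription in tumour cells without added interferon.

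All 39 genes were present in the table, and 35 had enough counts to be tested. The other 4 were OASL, BST2, XAF1 and HERC5. By the mean normalized count over the 9 libraries, 3 genes reached 1000 or more (PARP14, DTX3L and STAT2), 20 lay between 100 and 1000, 11 between 10 and 100, and 5 below 10. A normalized count is the number of reads of a gene divided by 1 size factor per library. Together the 39 genes took between 10937 and 12088 normalized counts per library, or 0.0579 to 0.0654% of all counts, and the largest sum belonged to sgScr-B.

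The libraries held between 17366120 and 19838142 raw counts in all. PHF8 itself was measured first as a check of the labels. Its normalized counts were 655.1, 605.8 and 634.2 with sgScr, 564.2, 571.2 and 565.2 with sgPHF8-1, and 399.8, 387.4 and 434.5 with sgPHF8-3. The 3 groups did not overlap, and the mRNA was 1.12-fold lower with sgPHF8-1 (log2 -0.16 ± 0.05 SE, adjusted p = 0.0272) and 1.55-fold lower with sgPHF8-3 (log2 -0.64 ± 0.06 SE, adjusted p = 6.36e-09). The mRNA level does not measure how much PHF8 protein remained. For SKMEL-147 the paper reported, by Western blot, that both guides removed the PHF8 protein efficiently. Those blots are not part of the data used here. Of the melanoma markers, SOX10, a transcription factor of the neural crest, had 2369 to 2830 normalized counts and MITF, the transcription factor of melanocytes, 200.5 to 287.5. The pigment genes MLANA and TYR were at 0 in every library. SOX10 was lower with both guides (log2 -0.18 and -0.12), and NGFR, a neural crest receptor, ranged from 11455 to 11971 with sgScr, from 6999 to 7311 with sgPHF8-1 and from 9052 to 9947 with sgPHF8-3. MITF (log2 -0.14 and 0.14) and AXL, a receptor tyrosine kinase of dedifferentiated melanoma at 27146 to 29594 (log2 -0.015 and 0.066), were not called with either guide. Both were higher with sgPHF8-3 than with sgPHF8-1 (MITF log2 0.28, adjusted p = 0.0306, and AXL log2 0.08, adjusted p = 0.049). Of 10 markers of immune, endothelial and epithelial cells found in the table, 2 were at 0 throughout, and the highest was the epithelial keratin KRT14, at 37.2 to 44 with sgScr and 13.4 to 28.7 with the PHF8 guides. KRT14, SOX10 and NGFR thus moved with the guides, and their part in the results below was not tested. sgPHF8-1-B stood apart from the other libraries on the second principal component, and counts of called members are given with and without it.

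Promoter windows were searched for the motifs of the interferon response. RefSeq windows (build GRCh38.p14) of 300 bases, from 250 before the start site to 50 after it, were found for 31 of the 39 genes. No entry was matched for IRF7, DDX58, IFIT2, OAS2, OASL, TRIM22, GBP2 and USP18. The ISRE core was searched as GAAA, any 2 bases, GAAA, and the GAS core as TTC, any 3 bases, GAA, each on both strands. The motifs may overlap each other. The ISRE core was found in 18 of the 31 windows (58.1%), against 3.57% of all 35116 windows in the table. The GAS core was found in 8 windows (25.8%), against 7.66% of all windows. At least 1 of these motifs was in 22 windows (71.0%), against 10.8% of all.

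A set of 5 windows is shown. PSMB9, IRF1, GBP1 and IFI44 were taken because both guides were called in the same direction, as given further on. IFI6 was added by name and was called against sgScr with sgPHF8-1 only. Capitals mark the motif matches. IRF1 (chr5:132490724-132491023, minus strand) holds 1 GAS core, GBP1 (chr1:89065159-89065458, minus strand) and IFI44 (chr1:78649539-78649838, plus strand) hold 1 ISRE core each, and IFI6 (chr1:27672143-27672442, minus strand) holds 3. PSMB9 (chr6:32853942-32854241, plus strand) holds neither motif in this window.
PSMB9 promoter: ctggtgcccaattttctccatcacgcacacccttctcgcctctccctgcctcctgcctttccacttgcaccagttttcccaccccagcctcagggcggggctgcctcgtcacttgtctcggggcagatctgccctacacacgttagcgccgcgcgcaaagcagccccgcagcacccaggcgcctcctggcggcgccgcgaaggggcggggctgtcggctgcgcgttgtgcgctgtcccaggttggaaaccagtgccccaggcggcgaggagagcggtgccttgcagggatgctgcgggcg
IRF1 promoter: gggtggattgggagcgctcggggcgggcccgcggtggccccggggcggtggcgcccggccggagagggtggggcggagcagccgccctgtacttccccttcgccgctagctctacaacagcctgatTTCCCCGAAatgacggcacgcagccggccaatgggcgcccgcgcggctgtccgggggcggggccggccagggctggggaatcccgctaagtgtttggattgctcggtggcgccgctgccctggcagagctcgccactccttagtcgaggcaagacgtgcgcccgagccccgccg
GBP1 promoter: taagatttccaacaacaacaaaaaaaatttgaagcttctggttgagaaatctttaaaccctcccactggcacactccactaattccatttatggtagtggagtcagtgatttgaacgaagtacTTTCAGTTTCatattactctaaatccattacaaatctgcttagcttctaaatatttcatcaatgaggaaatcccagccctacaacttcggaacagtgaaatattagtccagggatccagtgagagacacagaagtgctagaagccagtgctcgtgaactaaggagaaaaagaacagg
IFI44 promoter: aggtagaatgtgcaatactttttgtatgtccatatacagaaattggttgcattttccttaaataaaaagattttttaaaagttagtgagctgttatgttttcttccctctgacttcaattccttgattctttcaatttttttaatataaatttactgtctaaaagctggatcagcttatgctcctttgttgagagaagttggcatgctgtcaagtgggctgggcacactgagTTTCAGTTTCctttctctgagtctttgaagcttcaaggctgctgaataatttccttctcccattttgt
IFI6 promoter: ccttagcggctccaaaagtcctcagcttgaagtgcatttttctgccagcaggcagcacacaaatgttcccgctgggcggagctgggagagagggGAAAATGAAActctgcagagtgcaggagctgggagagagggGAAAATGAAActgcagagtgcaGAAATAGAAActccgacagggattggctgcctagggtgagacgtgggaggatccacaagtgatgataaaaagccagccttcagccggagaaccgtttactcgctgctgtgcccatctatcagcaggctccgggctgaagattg

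Matches fell on both sides of the calls. Of the 12 genes called in any pairwise comparison, 10 had a window, and 8 of these held at least 1 motif. Of the 23 genes tested and not called, 18 had a window, and 12 of these held at least 1 motif. IFIT5 and IFI6, for example, hold 3 ISRE cores each, and their mRNA levels did not follow the same course, as described below. A match in these letters is a description and does not show that a factor was bound.

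**Figure D1:**
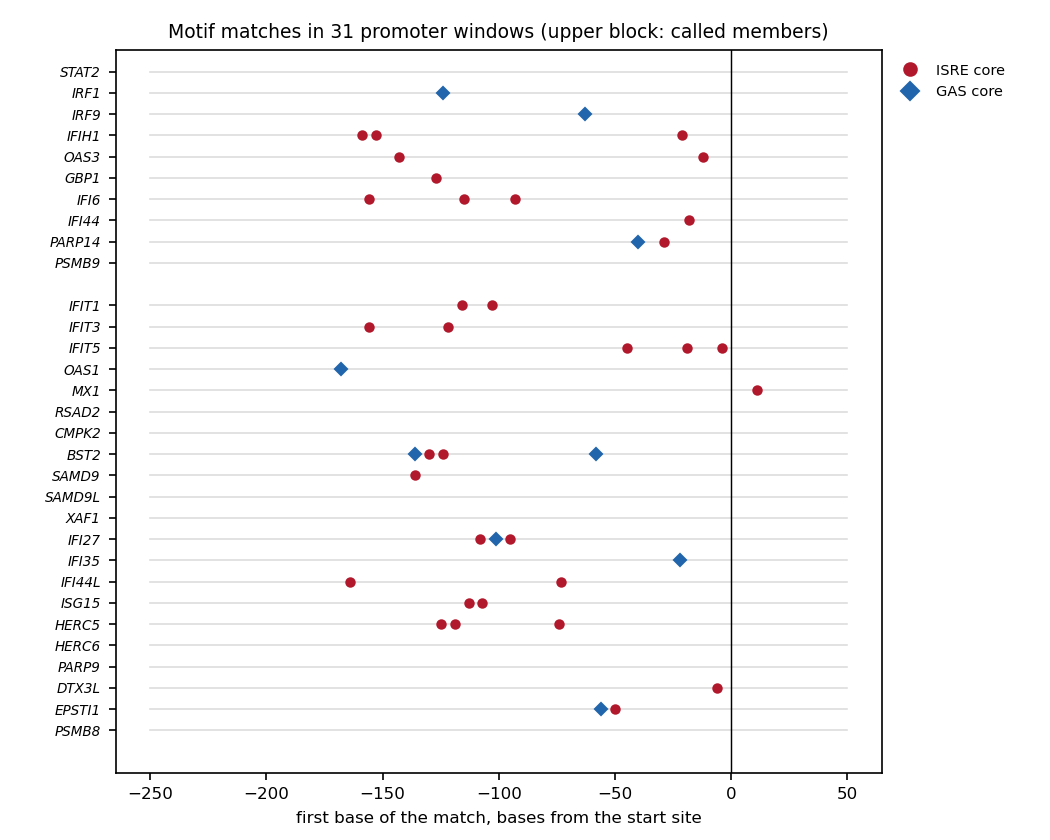
Position of the ISRE core (red circles) and the GAS core (blue diamonds) in the 31 promoter windows, with the first base of each match in bases from the start site on the x axis and 1 gene per row. The upper block holds the 10 windows of genes called in a pairwise comparison and the lower block the other 21 windows, and matches appear in both.

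**Figure D2:**
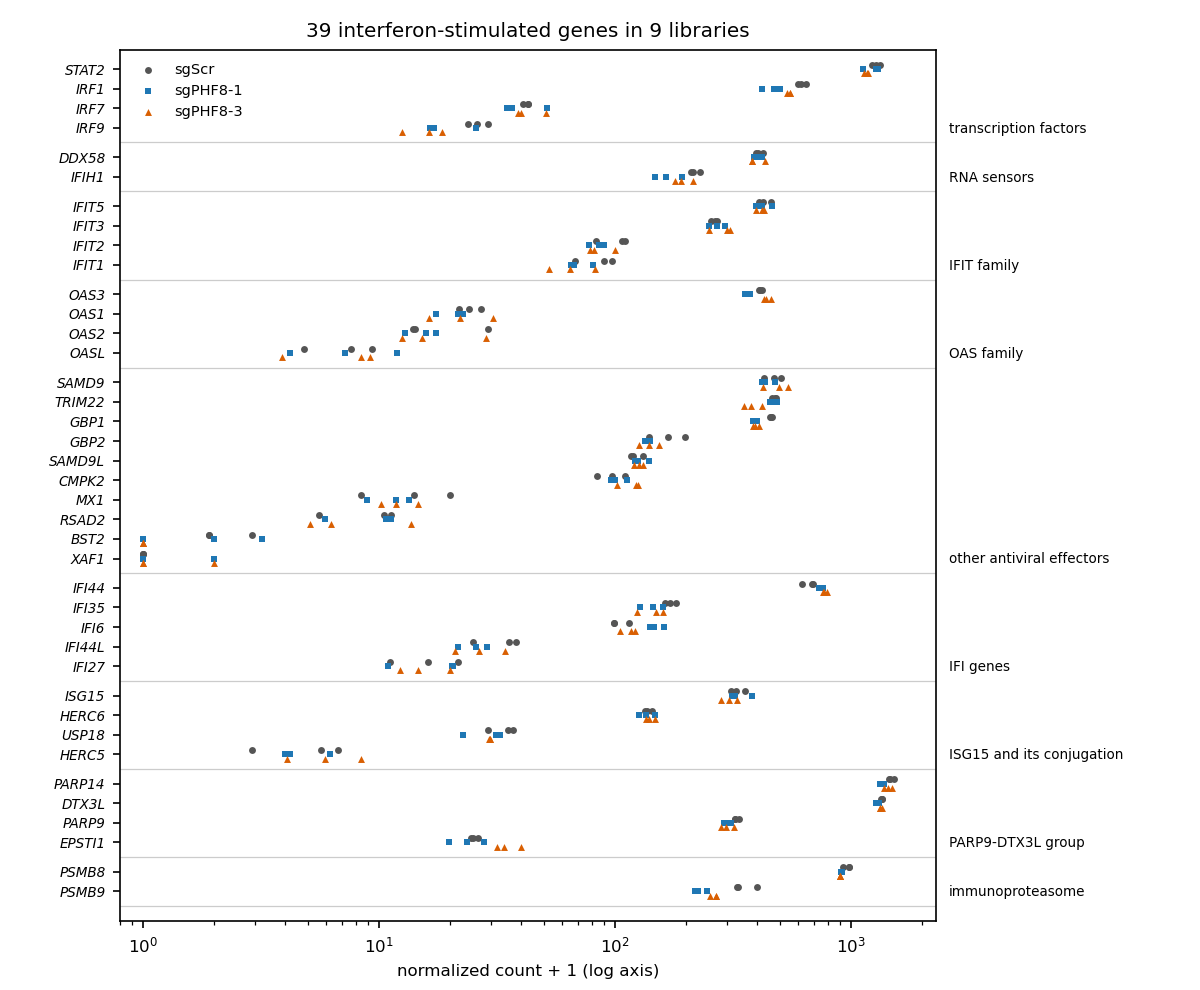
Normalized count plus 1 (log axis) of the 39 genes in each of the 9 libraries, by role group, with 1 point per library for sgScr (grey circles), sgPHF8-1 (blue squares) and sgPHF8-3 (orange triangles). Levels span from at or near 0 for XAF1 and BST2 to above 1000 for PARP14, DTX3L and STAT2, and for the genes above 100 the 9 points lie close together beside the distance between genes.

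In the control cells the levels differed far more between genes than between guides. Per kilobase of merged exons, the sgScr mean was highest for ISG15 at 380.8 normalized counts per kb, followed by IFI44 at 327.2, PSMB8 at 276.0 and DTX3L at 234.9. Next came PARP14 at 143.9, STAT2 at 137.5, IFI6 at 110.9 and PSMB9 at 106.3. ISG15 itself, the ubiquitin-like modifier, ranged from 309.5 to 353.9 normalized counts over the sgScr libraries and IFI44 from 621.9 to 692.9. At the other end, MX1, the dynamin-like GTPase that blocks viral replication and often serves as a marker of interferon exposure, had 0.733 per kb, OASL 0.987 and RSAD2, the antiviral enzyme viperin, 1.44. XAF1, a proapoptotic interferon target, was at 0 in all sgScr libraries and had at most 1.0 normalized count elsewhere. BST2, or tetherin, which holds budding virus at the cell surface, had at most 2.2. MX1 and ISG15 therefore lay far apart in this order, although both belong to the classical type I response. The order rests in part on merged exon length, 17.98 kb for MX1 and 0.867 kb for ISG15. By the sgScr mean, MX1 had 13.18 normalized counts, above OASL (6.238), HERC5 (4.079, or 0.856 per kb) and BST2 (1.25, or 1.136 per kb). ISG15 had 330.2, below PARP14 at 1479.

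Against sgScr, sgPHF8-1 cells had 7 genes lower and 2 higher of the 35 tested (edgeR quasi-likelihood test, Benjamini-Hochberg adjusted p under 0.05 over all 14614 genes tested). That is 20% lower and 5.71% higher, beside 15.7% and 15.2% of all genes tested. The genes lower were PSMB9, IRF1, IFIH1, GBP1, GBP2, OAS3 and PARP14, and those higher were IFI6 and IFI44. sgPHF8-3 cells had 6 genes lower and 1 higher, or 17.1% and 2.86%, beside 9.78% and 9.48% of all genes. These were PSMB9, IRF1, GBP1, TRIM22, STAT2 and IRF9, lower, and IFI44, higher. Without sgPHF8-1-B, sgPHF8-1 had 6 lower and 2 higher, beside 14% and 13.4% of all genes. In the same fit sgPHF8-3 had 6 lower and 1 higher, beside 11.4% and 11.6% of all genes. Without sgScr-C, sgPHF8-1 had 4 lower and 1 higher, beside 12.6% and 11.7% of all genes. Without any of sgScr-B, sgScr-C or sgPHF8-3-B, sgPHF8-3 had 3 lower and 1 higher, beside 6.63 to 7.43% and 6.01 to 6.47% of all genes. DESeq2 called 4 lower and 1 higher with sgPHF8-1, beside 11.4% and 10.9% of all genes, and 2 lower and 1 higher with sgPHF8-3, beside 6.32% and 6.1%. The calls it did not make included those of OAS3, PARP14 and GBP2 with sgPHF8-1 and of STAT2 with sgPHF8-3. The median log2 fold change of the 35 genes was -0.10 with sgPHF8-1 and -0.09 with sgPHF8-3, and that of all genes tested was 0.0 and -0.001. The members' medians moved with single libraries, to -0.057 and -0.049 without sgScr-B and to -0.15 and -0.126 without sgScr-A, and that with sgPHF8-3 to -0.06 without sgPHF8-3-B. Point estimates were negative for 27 of 35 genes with sgPHF8-1 and for 25 with sgPHF8-3, beside 7297 and 7330 of all 14614 genes. Both comparisons share the sgScr libraries. PSMB9, IRF1 and GBP1 were called lower by both guides, and IFI44 was called higher by both, beside 7.26% and 6.42% of all genes called lower and higher by both.

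**Figure D3:**
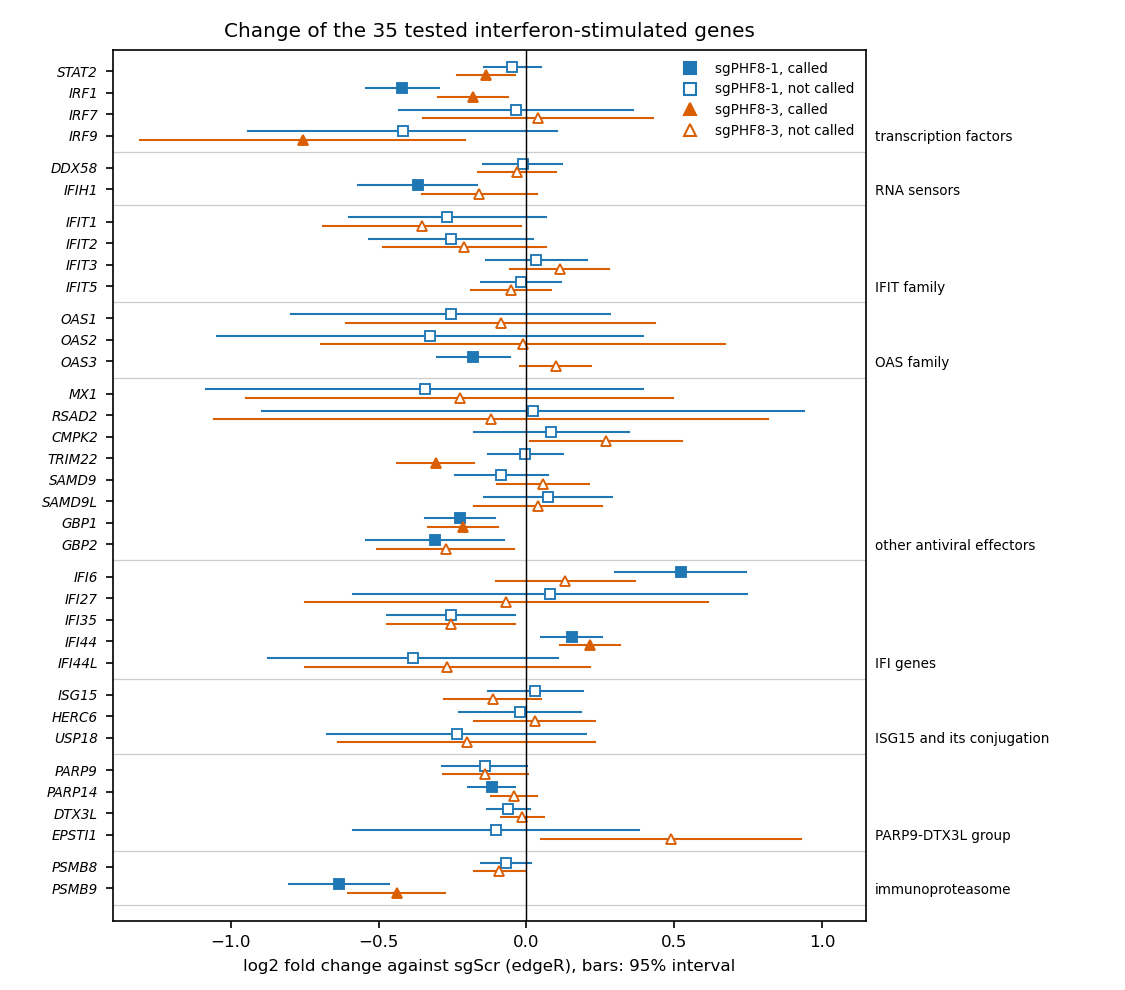
Log2 fold change against sgScr of the 35 tested genes for sgPHF8-1 (blue squares) and sgPHF8-3 (orange triangles), with 95% intervals from the edgeR fit as bars, by role group. Filled symbols passed the adjusted p of 0.05, and those of IFI6 and IFI44 are the only ones to the right of 0.

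Among the transcription factors, IRF1, which is itself induced by interferon gamma and turns on many of the others, fell with both guides. Its normalized counts were 596.6, 647.0 and 614.3 with sgScr, 419.9, 500.9 and 471.2 with sgPHF8-1, and 536.0, 550.4 and 552.9 with sgPHF8-3. The 3 groups did not overlap, and sgPHF8-3 lay between the others. The log2 fold change was -0.42 ± 0.06 (SE) with sgPHF8-1 (1.34-fold lower, adjusted p = 4.53e-06) and -0.18 ± 0.06 with sgPHF8-3 (1.13-fold lower, adjusted p = 0.0275). The sgPHF8-3 call was lost without sgScr-B (log2 -0.15, adjusted p = 0.145) and without any of 3 other libraries, sgScr-C, sgPHF8-3-A and sgPHF8-3-B (adjusted p = 0.063 to 0.0876). DESeq2 did not call it either (adjusted p = 0.0866). IRF1 overlaps the antisense gene IRF1-AS1 over 22.9% of its exon bases, and that gene had a mean of 15.1 raw counts.

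STAT2, a subunit of the ISRE-binding complex, had 1228.4, 1333.4 and 1277.9 normalized counts with sgScr, 1308.2, 1127.2 and 1277.2 with sgPHF8-1, and 1139.6, 1189.0 and 1167.1 with sgPHF8-3. All sgPHF8-3 libraries lay below all sgScr libraries, whereas sgPHF8-1 spanned both. The change was -0.14 ± 0.05 on the log2 scale with sgPHF8-3 (adjusted p = 0.044) and -0.05 ± 0.05 with sgPHF8-1 (adjusted p = 0.499). This call was lost without 5 of the 6 libraries compared, with adjusted p from 0.0708 to 0.211. IRF9, which gives the same complex its DNA contact, was rare, with 25.1, 28.1 and 22.8 with sgScr, 24.7, 16.2 and 15.5 with sgPHF8-1, and 17.6, 15.4 and 11.6 with sgPHF8-3. The sgPHF8-3 libraries all lay below sgScr, and sgPHF8-1-A lay within the sgScr range. IRF9 was 1.69-fold lower with sgPHF8-3 (log2 -0.76 ± 0.27, adjusted p = 0.0473), and leaving out any 1 of the 6 libraries compared ended the call (adjusted p = 0.0563 to 0.169). IRF9 shares 23.9% of its exon bases with another gene on the same strand, which had a mean of 12.6 raw counts beside a mean of 19.7 normalized counts for IRF9. IRF7, the amplifier of type I interferon transcription, ranged from 34.1 to 50.4 over the 9 libraries and was not called.

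Of the cytosolic RNA sensors, IFIH1 (MDA5, which detects long double-stranded RNA) had 209.1, 229.4 and 214.6 normalized counts with sgScr, 192.7, 147.1 and 164.3 with sgPHF8-1, and 213.6, 190.6 and 179.7 with sgPHF8-3. All sgPHF8-1 libraries lay below sgScr, and sgPHF8-3 overlapped it. IFIH1 was 1.29-fold lower with sgPHF8-1 (log2 -0.37 ± 0.10, adjusted p = 0.00482), while with sgPHF8-3 the value was -0.16 ± 0.09 (adjusted p = 0.258). The difference between the guides was 0.21 on the log2 scale (adjusted p = 0.203). DDX58 (RIG-I, the sensor of RNA with 5′-triphosphate ends) ranged from 381.3 to 433.1 with overlapping groups, and its 95% intervals were -0.15 to 0.12 and -0.17 to 0.10.

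None of the 4 IFIT genes, whose products bind foreign RNA and block its translation, was called. IFIT5, the most abundant, had 408.9, 457.9 and 425.3 normalized counts with sgScr, 420.9, 461.9 and 394.7 with sgPHF8-1, and 396.9, 419.2 and 430.3 with sgPHF8-3. The groups overlapped, and the 95% intervals of the log2 change were -0.15 to 0.12 and -0.19 to 0.09. IFIT1, IFIT2 and IFIT3 lay between 51.8 and 307.5 over all libraries.

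The 4 OAS genes code for sensors of double-stranded RNA, of which OAS1, OAS2 and OAS3 make the signal for RNase L. OASL, OAS1 and OAS2 stayed at 29.4 normalized counts or fewer in every library. OAS3 had 408.9, 418.5 and 411.1 with sgScr, 366.6, 354.8 and 372.0 with sgPHF8-1, and 458.6, 438.7 and 429.2 with sgPHF8-3. The groups did not overlap, and the guides lay on opposite sides of the control. The change was -0.18 ± 0.06 with sgPHF8-1 (adjusted p = 0.0248) and 0.10 ± 0.06 with sgPHF8-3 (adjusted p = 0.25). The first was not called without sgScr-B, sgScr-C, sgPHF8-1-A or sgPHF8-1-B (adjusted p = 0.0557 to 0.0806). OAS1 ranged from 15.4 to 29.4 and OAS2 from 11.6 to 28.1, both with overlapping groups, and neither was called.

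Among the other antiviral effectors, GBP1, a large GTPase that coats intracellular pathogens and a typical target of interferon gamma, fell with both guides. Its normalized counts were 457.2, 455.1 and 463.3 with sgScr, 398.2, 386.2 and 392.7 with sgPHF8-1, and 408.6, 391.5 and 384.8 with sgPHF8-3. All 6 PHF8-targeted libraries lay below the control, and the guides overlapped each other. The fold was 1.17 lower with sgPHF8-1 (log2 -0.22 ± 0.06, adjusted p = 0.00392) and 1.16 lower with sgPHF8-3 (log2 -0.22 ± 0.06, adjusted p = 0.0092). DESeq2 did not call the sgPHF8-3 change (adjusted p = 0.0519, in a range of 0.00719 to 0.0519 over the processing alternatives). The 95% interval of the difference between the guides was -0.11 to 0.13.

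GBP2, a related GTPase, had 139.4, 197.6 and 167.1 normalized counts with sgScr, 134.4, 139.6 and 133.3 with sgPHF8-1, and 138.2, 126.1 and 153.3 with sgPHF8-3. The groups overlapped, because sgScr-A lay within the range of the targeted cells. GBP2 was lower with sgPHF8-1 (log2 -0.31 ± 0.11, adjusted p = 0.0402), and without sgScr-B this became -0.17 (adjusted p = 0.311). Without sgScr-C, sgPHF8-1-A or sgPHF8-1-C its adjusted p was 0.0857 to 0.0929. With sgPHF8-3 it was -0.27 ± 0.11 (adjusted p = 0.0925).

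TRIM22, a RING-domain protein that restricts several viruses, had 462.8, 483.2 and 475.7 normalized counts with sgScr, 487.1, 474.9 and 455.7 with sgPHF8-1, and 418.4, 377.2 and 352.0 with sgPHF8-3. sgPHF8-3 lay below all the other libraries, and sgPHF8-1 overlapped sgScr. The log2 change was -0.31 ± 0.06 with sgPHF8-3 (1.24-fold lower, adjusted p = 0.00105) and -0.004 ± 0.06 with sgPHF8-1, with a 95% interval of -0.13 to 0.12. SAMD9 and SAMD9L, paralogous antiviral factors, were not called (418.7 to 540.9 and 115.8 to 139.3). Neither were CMPK2, a mitochondrial nucleotide kinase next to RSAD2, at 83.3 to 125.0, nor MX1 and RSAD2.

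The IFI genes held both members that rose. IFI6, a mitochondrial and endoplasmic reticulum protein that protects against apoptosis, had 98.5, 114.2 and 98.7 normalized counts with sgScr, 146.2, 161.2 and 140.5 with sgPHF8-1, and 120.5, 104.5 and 116.3 with sgPHF8-3. All sgPHF8-1 libraries lay above every other library, and sgPHF8-3 overlapped sgScr. The log2 change was 0.52 ± 0.11 with sgPHF8-1 (adjusted p = 0.000511) and 0.13 ± 0.11 with sgPHF8-3 (adjusted p = 0.462). In the annotation IFI6 shares 23.1% of its exon bases with LINC02574, which had 0 counts.

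IFI44, a cytoplasmic protein of the same induced set, had 685.8, 692.9 and 621.9 normalized counts with sgScr, 732.1, 730.2 and 762.6 with sgPHF8-1, and 791.8, 763.6 and 767.5 with sgPHF8-3. All 6 targeted libraries lay above the control. The log2 change was 0.15 ± 0.05 with sgPHF8-1 (adjusted p = 0.021) and 0.22 ± 0.05 with sgPHF8-3 (adjusted p = 0.0028). The sgPHF8-1 value became 0.11 without sgScr-C (adjusted p = 0.151) and 0.13 without sgPHF8-1-C (adjusted p = 0.0838), and DESeq2 did not call it (adjusted p = 0.0767). Its neighbour and paralog IFI44L, on the same strand of chromosome 1, was much rarer at 20.1 to 37, with estimates of -0.38 ± 0.24 and -0.27 ± 0.23 that were not called. IFI35, a partner of other interferon-induced proteins, had 162.6 to 181.3 with sgScr and 123.0 to 159.1 with the PHF8 guides, which did not overlap, and neither guide alone was called (log2 -0.26 and -0.25, adjusted p = 0.0681 and 0.0938).

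In the ISG15 group, none of the 3 tested genes was called. ISG15 had 327.1, 353.9 and 309.5 normalized counts with sgScr, 321.1, 380.8 and 312.1 with sgPHF8-1, and 328.3, 280.8 and 305.5 with sgPHF8-3. The groups overlapped, and the 95% intervals were -0.13 to 0.19 and -0.28 to 0.05. HERC6, of the HERC family of ligases, ranged from 125.5 to 146.7 and USP18, the protease that removes ISG15, from 21.7 to 36.2.

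PARP9 and DTX3L form a complex of a mono-ADP-ribosyl transferase and a ubiquitin ligase and are transcribed from a shared region on chromosome 3, near PARP14. PARP14, which supports STAT6 signalling, had 1453.3, 1460.7 and 1521.9 normalized counts with sgScr, 1336.8, 1367.4 and 1385.7 with sgPHF8-1, and 1378.7, 1495.4 and 1439.8 with sgPHF8-3. All sgPHF8-1 libraries lay below sgScr, and sgPHF8-3 overlapped both groups. The change with sgPHF8-1 was small (log2 -0.12 ± 0.04, 1.08-fold lower, adjusted p = 0.0201). It was not called without sgScr-C or sgPHF8-1-A (adjusted p = 0.111 and 0.0906). PARP9 (280.3 to 336.1) and DTX3L (1284 to 1362) were not called. EPSTI1, an epithelial-stromal interaction gene, is named here after its values were seen. It had 23.7 to 25.3 with sgScr and 30.7 to 39.2 with sgPHF8-3, the largest positive estimate with that guide (0.49 ± 0.21, adjusted p = 0.113).

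PSMB9 (LMP2), a catalytic subunit of the immunoproteasome, fell the most among the genes called with sgPHF8-1. Its normalized counts were 332.7, 401.7 and 330.4 with sgScr, 217.4, 244.5 and 225.3 with sgPHF8-1, and 251.8, 266.5 and 267.5 with sgPHF8-3. The 3 groups did not overlap, and all 6 targeted libraries lay below the control. PSMB9 was 1.55-fold lower with sgPHF8-1 (log2 -0.63 ± 0.08, adjusted p = 1.06e-06) and 1.36-fold lower with sgPHF8-3 (log2 -0.44 ± 0.08, adjusted p = 0.000241). PSMB8 (LMP7), another catalytic subunit, is its neighbour on chromosome 6 (hg19, positions 32808494 to 32812456, minus strand, beside 32811913 to 32827628, plus strand, for PSMB9). PSMB8 had 924.6, 978.5 and 978.9 with sgScr, 911.0, 916.3 and 919.7 with sgPHF8-1, and 903.5, 896.8 and 903.8 with sgPHF8-3. All targeted libraries lay below the control here too, by -0.07 ± 0.04 and -0.09 ± 0.04, and neither was called (adjusted p = 0.225 and 0.128). Their exons overlap by 139 bases on opposite strands.

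**Figure D4:**
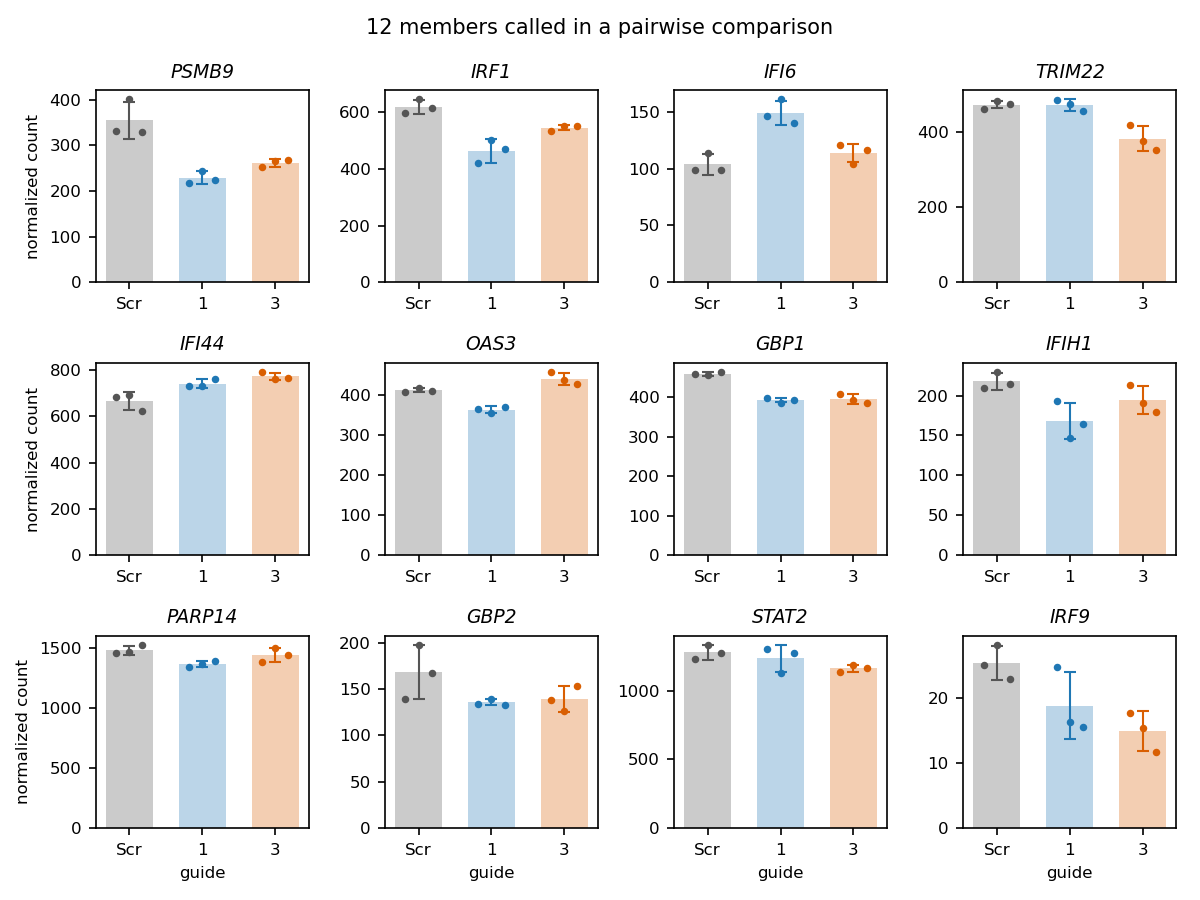
Normalized counts of the 12 genes called in any pairwise comparison, with 1 point per library, bars for the group mean of 3 libraries and error bars for the SD, for sgScr (grey), sgPHF8-1 (blue) and sgPHF8-3 (orange). PSMB9, IRF1 and GBP1 lie below the control with both guides, IFI44 lies above it with both, and TRIM22 and IFI6 stand apart from it with 1 guide. OAS3 lies below it with sgPHF8-1 and above it with sgPHF8-3, where it was not called.

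The guides were then compared with each other. Of the 35 genes, 2 were higher and 2 lower with sgPHF8-3 than with sgPHF8-1, or 5.71% each way, beside 5.83% and 4.74% of all genes tested. IRF1 (log2 0.24 ± 0.06, adjusted p = 0.0123) and OAS3 (0.28 ± 0.06, adjusted p = 0.00322) were higher with sgPHF8-3. TRIM22 (-0.30 ± 0.07, adjusted p = 0.00278) and IFI6 (-0.39 ± 0.11, adjusted p = 0.0195) were lower. Without sgPHF8-1-B the counts were again 2 higher and 2 lower of the tested members, beside 5.48% and 4.36% of all genes. However, the IFI6 difference was then not called (log2 -0.34, adjusted p = 0.067) and STAT2 was lower (-0.15, adjusted p = 0.017). The IFI6 difference was also lost without sgPHF8-3-B (-0.33, adjusted p = 0.103), and that of IRF1 without sgPHF8-1-A (0.17, adjusted p = 0.114) or sgPHF8-3-B (0.23, adjusted p = 0.0501). For PSMB9 the guides differed by 0.19 on the log2 scale (95% interval 0.01 to 0.37, adjusted p = 0.167).

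When the average of both guides was set against sgScr, 10 of the 35 genes were called (28.6%, beside 29.6% of all genes tested), 8 lower and 2 higher, beside 14.9% and 14.7% of all genes. These included IFI35 (log2 -0.26 ± 0.09, adjusted p = 0.034), which neither guide alone had brought past the threshold. IRF1 (-0.30 ± 0.05, adjusted p = 4.59e-05) and PSMB9 (-0.54 ± 0.07, adjusted p = 1.02e-06) had the smallest adjusted p-values. Without sgPHF8-1-B the count was again 8 lower and 2 higher, beside 14.8% and 14.7% of all genes. Without sgScr-B it was 5 and without sgScr-C 6, beside 21.0% and 21.8% of all genes. DESeq2 called 4 members and the fit with the 6 targeted libraries as 1 group called 5, beside 20.9% and 20.8% of all genes.

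For 14 of the 23 genes never called, the 95% intervals with both guides stayed inside a 1.5-fold change in either direction. For the other 9, with mean levels of at most 73.3 normalized counts, the interval of at least 1 guide reached past a 1.5-fold change. In a pool of edited cells, a change in a fraction of the cells and a smaller change in every cell cannot be told apart.

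Of 12 interferon genes listed, a part of the family, 11, IFNB1 included, were at 0 in all 9 libraries, and IFNE had at most 1.9 normalized counts. None of them could be tested. For the lists outside the 39, the shares to read counts against are 15.7% lower and 15.2% higher of all genes tested with sgPHF8-1, and 9.78% and 9.48% with sgPHF8-3. Of 10 tested receptor, kinase and STAT genes, 3 were called lower with sgPHF8-1 and 2 with sgPHF8-3, and none was called higher with either guide. JAK1, the kinase shared by the interferon receptors, had 5398 to 5485 with sgScr and was lower at 4921 to 5068 with sgPHF8-1 (log2 -0.13 ± 0.03, adjusted p = 0.00149) and at 5005 to 5288 with sgPHF8-3 (-0.09 ± 0.03, adjusted p = 0.0347). IFNAR1, a chain of the type I receptor, was lower with sgPHF8-1 (log2 -0.14 ± 0.04, adjusted p = 0.00795) and had -0.04 ± 0.04 with sgPHF8-3 (adjusted p = 0.467). STAT3, the main STAT of the interleukin-6 family, was lower with both guides (log2 -0.17 and -0.15, adjusted p = 0.00027 and 0.00239).

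Of 16 tested genes of nucleic acid sensing and its adaptors, 6 were lower and 1 higher with sgPHF8-1, and 3 were lower and 1 higher with sgPHF8-3, beside the same shares of all genes (15.7% and 15.2%, then 9.78% and 9.48%). MAVS, the mitochondrial adaptor downstream of DDX58 and IFIH1, was lower with both guides (log2 -0.14 and -0.19, adjusted p = 0.00716 and 0.00108). The 1 gene of this list called higher by each guide was TBK1, the kinase that acts downstream of MAVS (log2 0.13 and 0.18, adjusted p = 0.0208 and 0.00537). Of 9 tested genes on the list of negative regulators, 4 were higher and 1 lower with sgPHF8-1 (15.2% and 15.7% of all genes), and 1 was lower with sgPHF8-3 (9.78% of all genes). The gene called lower by each guide was UBE2L6 (log2 -0.29 and -0.22, adjusted p = 0.00159 and 0.0195). It codes for the enzyme that conjugates ISG15, so this list does not hold negative regulators alone. The 4 called higher with sgPHF8-1 were SOCS2 and SOCS3, suppressors of cytokine signalling (log2 0.39 and 0.20), the tyrosine phosphatase PTPN1 (0.14) and the ubiquitin ligase TRIM27 (0.16). TBK1, UBE2L6 and these 4 genes are named after their values were seen.

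A further list of 47 interferon-stimulated genes outside the 39 had 38 tested genes. With sgPHF8-1, 11 were lower and 5 higher, beside 15.7% and 15.2% of all genes. With sgPHF8-3, 9 were lower and 2 higher, beside 9.78% and 9.48% of all genes. Their median log2 changes were -0.08 and -0.06. Of the 73 tested genes of this and the pathway lists, 14 were called the same way by both guides, 12 lower and 2 higher, beside 7.26% and 6.42% of all genes. Both calls share the sgScr libraries. TAP1, the peptide transporter of MHC class I loading, had 1325.1, 1225.7 and 1287.4 normalized counts with sgScr, 1024.6, 1024.5 and 954.8 with sgPHF8-1, and 1014.2, 963.5 and 945.1 with sgPHF8-3. All targeted libraries lay below the control (log2 -0.35 ± 0.04 and -0.39 ± 0.04, adjusted p = 3.91e-07 and 1.89e-07). TAP1 lies beside PSMB9 on the opposite strand (hg19 chromosome 6, 32812986 to 32821593), within the annotated span of PSMB9. B2M, the light chain of MHC class I, fell by 0.15 and 0.16 on the log2 scale (adjusted p = 0.000334 and 0.000243). IFITM3, which blocks viral entry at endosomes, fell by 0.32 and 0.33 (adjusted p = 4.57e-05 and 5.81e-05). HELZ2, a helicase that acts as a nuclear receptor coactivator, fell by 0.29 and 0.40 (adjusted p = 5.76e-05 and 1.62e-06), and PML, the organizer of PML nuclear bodies, by 0.24 and 0.19 (adjusted p = 0.000487 and 0.0084). WARS, the tryptophanyl-tRNA synthetase, which is also a target of amino acid stress signalling, rose with both guides (log2 0.16 and 0.18, adjusted p = 0.00106 and 0.0007).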

How the data were processed

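RNA was extracted from 3 biological replicates per guide, depleted of rRNA and made into libraries with the ScriptSeq kit, which marks strand, and sequenced as paired ends. The authors aligned reads to hg19 with STAR, and the submitters' processing notes also name Picard, HTSeq and DESeq2. The annotation and the strand setting used for counting are not given in the sources used here, nor is the handling of reads shared by paralogs such as the IFIT, OAS and GBP genes.

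The authors deposited a table of raw counts per Ensembl gene and a table of normalized counts per symbol, a signal that equals the raw counts divided by 1 size factor per library (the ratio was constant to 1e-06 over 5883 genes). Symbols were paired with Ensembl IDs by identical counts or by the reference name table. Raw counts were tested with edgeR 4.0.16 (R 4.3.3) by the quasi-likelihood test with TMM scaling and filterByExpr, leaving 14614 genes. All 9 libraries shared 1 fit with a group term, and p-values were adjusted by Benjamini-Hochberg over all genes, with calls at 0.05. Errors of fold changes are the log2 estimate divided by the root of the F statistic, and intervals are 95%. The script was tested on simulated data. Total counts of 17366120 to 19838142 per library set the precision, and these errors cover the spread between 3 libraries.

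Replicates of a group differed by more than sampling noise in every pair, so none was counted as a repeat deposit. The chi-square per gene, near 1 for sampling noise alone, ran from 1.314 to 3.865 over the pairs. Whether the 3 libraries of a guide came from separate infections is not given in the sources used here. Hg19 positions, exon lengths and overlaps were taken from GENCODE 44 lifted to GRCh37, and promoter windows from RefSeq. Alternatives were DESeq2 1.42.0, other size factors, other filters on low counts (none, or a mean of at least 50), only the libraries compared, a replicate term, the 6 PHF8-targeted libraries as 1 group, and leaving out each library. Named members were those called in a pairwise comparison plus, in each role group without one, the most abundant tested member. Genes outside the 39 were named where called the same way by both guides, the first 8 by the larger adjusted p, plus IFNB1, IFNAR1 and JAK1. TBK1, UBE2L6, SOCS2, SOCS3, PTPN1 and TRIM27 fall outside this rule and were named after their values were seen. A further gene fixed by name is not reported here. The members and lists were chosen with earlier results of these data known.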

Additional observations from a re-analysis of the deposited data

Results flagged for a closer look

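Effects of the guides against the shared sgScr control differed for 4 members, by the contrast of sgPHF8-3 with sgPHF8-1 in the edgeR fit. The differences on the log2 scale were 0.24 for IRF1 (adjusted p = 0.0123), 0.28 for OAS3 (adjusted p = 0.00322), -0.30 for TRIM22 (adjusted p = 0.00278) and -0.39 for IFI6 (adjusted p = 0.0195). IRF1 was lower than sgScr with both guides and more so with sgPHF8-1. OAS3 lay below sgScr in all 3 sgPHF8-1 libraries and above it in all 3 sgPHF8-3 libraries. The OAS3 rise with sgPHF8-3 was not called (edgeR adjusted p = 0.25), and its fall with sgPHF8-1 was called in 5 of 9 fits that left out 1 library. Of these fits, 7 called the guide difference of IRF1, 7 that of IFI6, and all 9 those of OAS3 and TRIM22. TRIM22 was lower with sgPHF8-3, and IFI6 higher with sgPHF8-1. PHF8 mRNA itself was 0.48 lower on the log2 scale with sgPHF8-3 than with sgPHF8-1 (log2 -0.48, adjusted p = 3.86e-06), and its part in these differences was not tested.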

How the results depend on the processing

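No named member changed direction past the threshold in any setting run. Of the 20 called values of the 12 named members, 10 were called in every setting and without any 1 library, among them both values of PSMB9. DESeq2 gave an adjusted p for 18 of the 20 and called 11. It called 5 members with sgPHF8-1, 3 with sgPHF8-3 and 4 for the average of both guides, where edgeR called 9, 7 and 10, and it called 1816 of all genes with sgPHF8-3 and 988 between the guides, where edgeR called 2814 and 1544. The cause was not tested. With DESeq2 the sgPHF8-1 calls of IFI44 (adjusted p = 0.0767), OAS3 (0.105), PARP14 (0.0691) and GBP2 (0.109) and the sgPHF8-3 calls of IRF1 (0.0866), GBP1 (0.0519) and STAT2 (0.1) were lost. With no filter on low counts, OAS3 with sgPHF8-1 (adjusted p = 0.055) and IRF9 with sgPHF8-3 (0.0601) were not called. Taking the 6 PHF8-targeted libraries as 1 group left 5 members called, and 3038 of all genes in place of 4321. Leaving out 1 library at a time gave 5 to 9 members with sgPHF8-1 (lowest without sgScr-C), 4 to 8 with sgPHF8-3 (lowest without sgScr-B, sgScr-C or sgPHF8-3-B), 2 to 4 between the guides (lowest without sgPHF8-3-B) and 5 to 11 for the average (lowest without sgScr-B). For all genes between the guides the range was 923 to 1467 (lowest without sgPHF8-3-B, then 983 without sgPHF8-3-C), or 6.2 to 9.84%. The share of all genes called ran from 23.9 to 31.2% with sgPHF8-1 and from 12.6 to 23.0% with sgPHF8-3. For the average it ran from 21.0 to 29.5%. Same-lettered libraries deviated together with correlations from -0.173 to 0.109, so the letters were not treated as pairs. With a replicate block, 9, 6, 4 and 10 members were called in the 4 comparisons, and 4395, 2698, 1481 and 4198 of all genes, and the STAT2 call with sgPHF8-3 was lost (adjusted p = 0.0551). Depth limits the rare members, OASL, BST2, XAF1 and HERC5, which could not be tested, and MX1, RSAD2, OAS1, OAS2 and IFI27, whose intervals were wide.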
